A study of Mus musculus with 2 samples.

Results

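LSD1 (KDM1A) is a histone demethylase that works inside corepressor complexes. The peaks described here are the sites on mouse chromosome 17 at which LSD1 was mapped in C2C12 cells, an established mouse myoblast line that forms myotubes when serum is reduced. They were chosen by their chromosome: every entry of the authors' peak list assigned to chromosome 17 was taken, and the 1 peak on the unlocalised sequence of that chromosome was left out. This gave 451 peaks of 11797 in all, or 3.82% of the list, and they covered 243 kb of mm9. No peak on chromosome 17 overlapped the next.

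The study asked where LSD1 sits in differentiating myoblasts. Both groups were C2C12 cells kept in medium with 25 mM glucose, grown with 10% fetal bovine serum and then held for 48 h in 2% horse serum. The LSD1 group was 1 chromatin immunoprecipitation library made with a polyclonal antibody against LSD1, and the input group was 1 library of the same kind of cells with no antibody. Fixation used formaldehyde and disuccinimidyl glutarate, a longer crosslinker that also joins proteins, so a peak can mark LSD1 held to DNA through a partner. There were no replicates and no undifferentiated cells, so nothing here separates an effect of differentiation, and no value carries a replicate error. The deposited list gives a position and a caller's score for each peak and no read counts, so sequencing depth is unknown. Intervals below are exact 95% intervals that treat each peak as an independent count, cover counting error alone, and are too narrow where peaks lie in groups. No test was run, since chromosomes and peaks are not replicates of a condition.

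LSD1 removes methyl groups from lysines of histone tails and is usually recruited to DNA by transcription factors and corepressors, both at promoters and at enhancers. In myoblasts it is known to take part in the switch to the muscle gene programme. Chromosome 17 is best known for the mouse major histocompatibility complex (MHC, named H2). This gene-dense region encodes class I and class II antigen-presenting molecules, complement components and tumour necrosis factor, and it is flanked by olfactory receptor genes. A RefSeq gene table of another build (GRCm38.p6), used for names and chromosome assignments alone, places 1059 protein-coding genes on chromosome 17. Among them are 38 whose symbols start with H2-, such as H2-K1 and H2-D1 (class I heavy chains) and H2-Ab1 and H2-Aa (the chains of a class II molecule), and also Tnf (a cytokine) and C4b (a complement component). Gene annotation and sequence of mm9 were not used here, so no peak is assigned to a gene and no peak sequence is shown.

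Along chromosome 17 the LSD1 peaks filled 2 stretches, with a mostly sparse middle between them and a sparse end. The middle also held the 2 fullest windows of 1 Mb. The first peak lay at chr17:3005160-3005738 and the last at chr17:95259359-95260071, a span of 92.3 Mb between starts. Over this span there were 4.89 peaks per Mb (exact Poisson interval 4.45 to 5.36). The 93 windows of 1 Mb held a median of 4 peaks. Of these windows, 42 held 1 to 3 peaks, while 14 windows held 10 or more and together carried 178 peaks, 39.5% of the chromosome's total. Peaks were thus neither evenly spread nor gathered in one place.

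**Figure D1:**
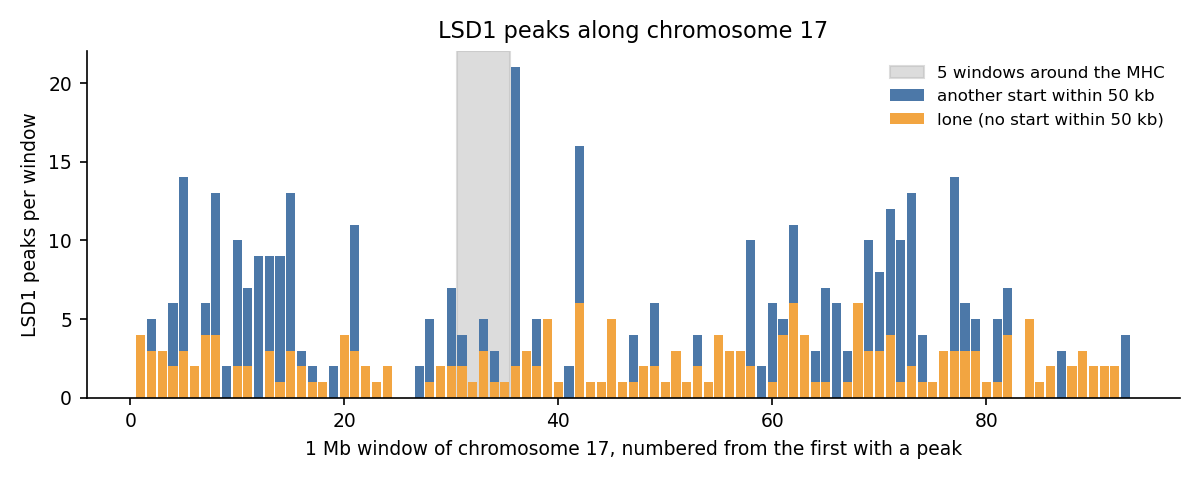
Number of LSD1 peaks (vertical axis) in each 1 Mb window of chromosome 17 (horizontal axis, windows numbered from the first with a peak), with lone peaks in orange, other peaks in blue and the 5 windows around the MHC shaded. The tallest bar, window 36 with 21 peaks, stands directly after the shaded windows, which hold 1 to 5 peaks each.

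The fullest window was 38 to 39 Mb, with 21 peaks. It was followed by 44 to 45 Mb with 16, by 7 to 8 Mb and 79 to 80 Mb with 14 each, and by 10 to 11 Mb with 13. The windows at 17 to 18 Mb and 75 to 76 Mb also held 13. The fullest windows differed in how their peaks were laid out. From 38 to 39 Mb the 21 peaks fell within 347 kb, 18 of them had another start within 10 kb, and their median score was 71.1. From 44 to 45 Mb the 16 peaks stretched over 901 kb, 6 of them had a start within 10 kb, and their median score was 96.2. The score is the authors' caller's own value. Its scale is not stated, and it is used here to describe and rank peaks within this list, whose median score was 78.25.

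The longest stretches without a start lay in the sparse middle. No peak started between 26864169 and 29546694, a distance of 2683 kb, which takes in 2 of the 3 empty windows. The next were 1690 kb, from 42154145 to 43844165, and 1429 kb, from 20162777 to 21591662. All 3 of these stretches lie between 20 and 44 Mb. Whether sequence there could be mapped was not tested.

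When the profile was cut at 18, 60 and 82 Mb, limits picked after it was seen, the 2 filled stretches had higher median lengths and scores than the 2 sparse ones, with intervals that overlapped for several pairs. From 3 to 18 Mb there were 112 peaks, 7.47 per Mb, with a median length of 566.5 bp (exact interval of the median 494 to 606) and a median score of 90.2 (78.8 to 115.8). From 60 to 82 Mb there were 149 peaks, 6.77 per Mb, with a median length of 490 bp (463 to 526) and a median score of 82.6 (73.9 to 89.9). The sparse stretch from 18 to 60 Mb held 151 peaks, 3.60 per Mb, at 444 bp (408 to 468) and a score of 71.1 (66.3 to 79.3). It contains the 2 fullest windows, at 38 to 39 and 44 to 45 Mb, while its median window held 2.5 peaks. The last 14 Mb held 39 peaks, 2.79 per Mb, at 373 bp (345 to 435) and 68.8 (60.5 to 78.6). In length the interval of the first stretch lay above those of both sparse ones, and that of 60 to 82 Mb lay above that of the last stretch and overlapped that of 18 to 60 Mb. In score the interval of the first stretch overlapped that of 18 to 60 Mb and lay above that of the last by less than 1 unit. The score interval of 60 to 82 Mb overlapped those of both sparse stretches. Lone peaks ran the other way, from 32.1% in the first stretch and 35.6% from 60 to 82 Mb to 52.3% and 64.1% in the sparse ones. A peak is by construction more often lone where peaks are few.

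**Figure D2:**
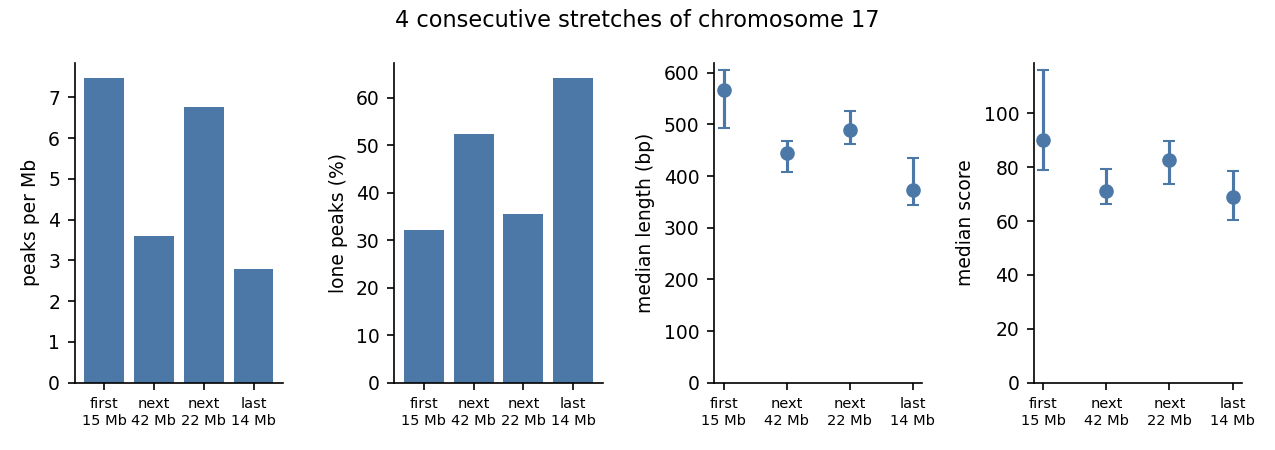
Density, share of lone peaks, median length in bp and median score (vertical axes) in 4 consecutive stretches of chromosome 17 (horizontal axes); bars give densities and shares, and points give medians with exact 95% intervals. The filled stretches, from 3 to 18 Mb and from 60 to 82 Mb, with 7.47 and 6.77 peaks per Mb, also have the higher median lengths, 566.5 and 490 bp.

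Around the MHC, LSD1 peaks were few, well separated and mostly low in score. Between 33 and 38 Mb, 14 peaks started, 3.10% of the chromosome's peaks (exact binomial interval 1.71 to 5.15%) on 5.42% of its span. This was 2.80 per Mb (exact Poisson interval 1.53 to 4.70) against 5.01 per Mb on the rest of chromosome 17, a ratio of 0.559 (0.306 to 0.938, with the rest held fixed). Among peaks at or above the list's median score, of which the stretch had 4, the ratio was 0.312. The rest includes the 2 filled stretches. The sparse stretch from 18 to 60 Mb, which contains these 5 Mb, held 3.60 per Mb, inside the interval of 1.53 to 4.70. The 5 windows held 4, 1, 5, 3 and 1 peaks in order. No 2 of these peaks started within 10 kb of each other: the closest pair was 32.8 kb apart, the widest spacing was 1084 kb, and 8 of the 14 were lone. That share is near the 52.3% of lone peaks from 18 to 60 Mb, against 42.8% on the whole chromosome. Wide spacing and lone peaks go by construction with a low density.

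The level was low for chromosome 17 without being its lowest. Of the 89 stretches of 5 Mb that start at whole megabases, 18 held fewer peaks and 1 more held as many, with a range from 5 to 53 and a median of 24. The emptiest, from 24 and from 25 Mb, held 5 each. On the other autosomes, 768 of 2155 such stretches (35.6%) held 14 peaks or fewer. Counts this low were therefore common in the list.

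Scores around the MHC were mostly under the list's median. The 14 scores ran from 52.64 to 322.91 with a median of 60.77, against 79.11 on the rest of the chromosome and 71.1 from 18 to 60 Mb. At or above the list's median were 4 of 14 peaks (28.6%, exact interval 8.39 to 58.1%), compared with 223 of 437 elsewhere on the chromosome (51.0%), a share inside that interval. The 5 highest-scoring peaks were chr17:33920144-33921357 (322.91), chr17:36160454-36161709 (182.21), chr17:36925732-36926265 (86.71), chr17:35895733-35896314 (82.42) and chr17:33753177-33753447 (66.02). The first and second of these were also the long ones, at 1214 and 1256 bp, and both were lone. The others in the stretch were 271 to 870 bp long, and the median over the 14 was 500.5 bp against 470 bp elsewhere.

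The limits of the stretch bear on its count. The first peak inside, at 33398231, and the last, at 37870425, both scored low, at 55.68 and 52.64. The nearest peaks outside were at 32721079 (score 69.10) and at 38558859 (60), the latter being the first of the 21 peaks of the fullest window. With limits of 34 and 37 Mb the stretch held 2.00% of the chromosome's peaks, and with limits of 32 and 39 Mb it held 9.31%. These shares are of stretches of unlike length. Per Mb, the narrower stretch was close to that of 33 to 38 Mb, and the wider one was above the whole chromosome's 4.89. The density around the MHC was thus low with the narrower limits and not with the wider ones. The wider limits brought in 7 peaks from 32 to 33 Mb and the 21 of the fullest window. The peaks of that window ran to chr17:38905468-38905864 and included 3 of 1 kb or longer, the longest being chr17:38667167-38668419 at 1253 bp with a score of 301.90.

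**Figure D3:**
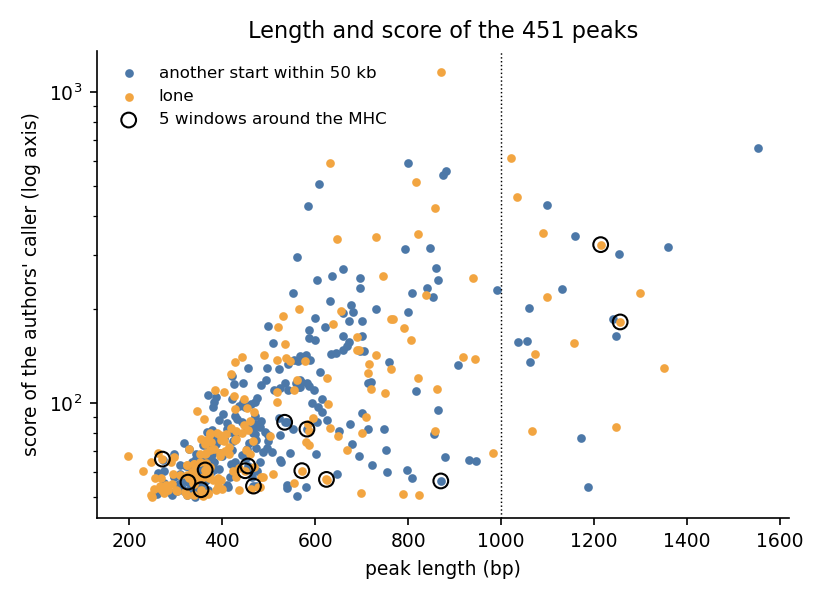
Length in bp (horizontal axis) and caller's score (vertical axis, logarithmic) of the 451 peaks of chromosome 17, lone peaks in orange, other peaks in blue, peaks around the MHC circled; the dotted line marks 1 kb. Of the 14 circled peaks, 2 lie beyond 1 kb and the other 12 score at most 86.71.

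Most groups of neighbouring LSD1 peaks on chromosome 17 were pairs. Joining starts that follow each other within 10 kb left 324 single peaks, 33 pairs, 15 groups of 3 and 4 groups of 4, the largest size reached. Of the 4 largest groups, 3 followed one another in the fullest window, at 38685696 to 38695255, 38717798 to 38732705 and 38742454 to 38760348. The remaining one lay at 44163264 to 44172380. Among the groups of 3, the first along the chromosome spanned 6164964 to 6180860 and scored from 112.82 to 272.60. In the 4 groups of 4 no score was above 116.45. In the other autosomes compared, which are 1 to 19 without chromosomes 15 and 17, the largest group had 5 or more peaks on 14 of 17, reaching 44 on chromosome 4, and 4 or fewer on 3 (chromosomes 2, 9 and 11).

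Nearest-neighbour distances on chromosome 17 were close to those of the other autosomes pooled at the median. They were longer than the pool's at the lower percentiles given and shorter at the upper ones. The median distance to the nearest other start was 37.1 kb, against 34.9 kb over the 17 other autosomes pooled. The 10th percentile was 2.61 kb against 1.18 kb, and the 90th was 232 kb against 284 kb. The 25th was 7.96 kb against 5.19 kb, and the 75th was 111 kb against 121 kb. A start within 1 kb was found for 22 peaks (4.88%, interval 3.08 to 7.29%), against 7.92% (7.37 to 8.48%) in the pool, and a start within 10 kb for 127 (28.2%, 24.1 to 32.6%), against 31.9% (30.9 to 32.8%). Of the pool's 737 peaks with a start within 1 kb, chromosomes 4, 8 and 13 supplied 135, 103 and 78. By single chromosomes, the share within 1 kb ran from 2.54% on chromosome 2 to 15.2% on chromosome 4, with 12 above chromosome 17 and 5 below. Chromosome 17 thus lay inside the range.

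Chromosomes of like density laid out their peaks in different ways. Chromosome 13, at 5.07 peaks per Mb, had a start within 1 kb for 13.2% of its peaks (10.6 to 16.3%), chromosome 3, at 4.51, for 7.80% (5.93 to 10.0%), and chromosome 1, at 4.39, for 6.82% (5.22 to 8.72%). The interval of chromosome 17 overlapped those of chromosomes 1 and 3 and lay below that of chromosome 13. Within 10 kb the shares were 45.0% on chromosome 13, 27.9% on chromosome 3 and 27.7% on chromosome 1, so chromosome 17, at 28.2%, was close to the latter pair.

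**Figure D4:**
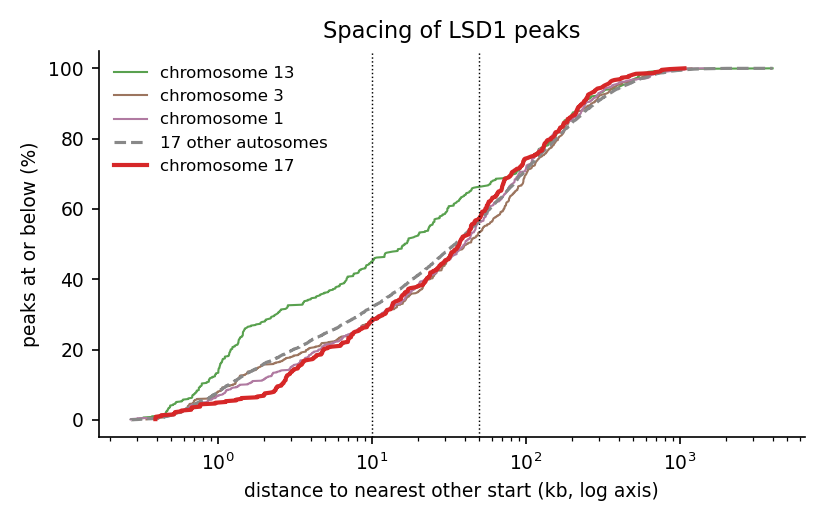
Cumulative percentage of peaks (vertical axis) by distance to the nearest other start in kb (horizontal axis, logarithmic) for chromosome 17 (red), chromosomes 13, 3 and 1 and the 17 other autosomes pooled (dashed); dotted lines mark 10 and 50 kb. The red curve is at 28.2% at 10 kb, where chromosome 13 is at 45.0%.

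Lone peaks, those with no other start within 50 kb, made up 193 of the 451 peaks (42.8%, exact interval 38.2 to 47.5%). The share over the pooled autosomes was 43.3% (42.3 to 44.3%), and single autosomes ran from 26.8% on chromosome 8 to 58.2% on chromosome 9. Just inside this class were the peaks at 73417730 and 73467990, each 50.26 kb from the other, and just outside was one at 7983407, 49.51 kb from its neighbour. Of the lone peaks, 8 had no start within 500 kb. The most remote, at 48542507, was 1072 kb from its nearest neighbour. In 39 of the 93 windows every peak was lone.

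Lone peaks were found at both high and low scores. The highest score on the chromosome, 1159.03, belonged to the lone peak chr17:16355374-16356244, 871 bp long and 126 kb from its neighbour. Next among lone peaks came chr17:84984100-84985121 (615.41), chr17:4626043-4626674 (592.59), chr17:86608864-86609680 (512.81) and chr17:65185934-65186966 (458.97). These 5 were also among the 10 highest of all 451, a share of 50% that is near the 42.8% of lone peaks on the whole chromosome. The other 5 of those 10 were chr17:76607667-76609218 (662.68), chr17:79952973-79953771 (592.08), chr17:14747646-14748527 (555.42), chr17:73319909-73320782 (539.43) and chr17:62787282-62787889 (506.03). Of these, the peak at 14747646 missed the lone class narrowly, at 48.97 kb from its neighbour. The median score of the lone class was 74.87 (68.79 to 79.95), against 82.15 (75.84 to 87.36) for the 258 others, with overlapping intervals. At or above the list's median were 45.1% of lone peaks (37.9 to 52.4%) and 54.3% of the others (48.0 to 60.5%).

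LSD1 peaks of chromosome 17 were moderately long and none was very long. The median length was 470 bp (exact interval 451 to 491), with quartiles of 369.5 and 646 bp and a range of 198 to 1552 bp. The pooled autosomes had a median of 439 bp (435 to 443), and by chromosome chromosome 11 was longer (486 bp), chromosome 4 equal and the other 15 shorter, down to 417 bp on chromosome 9. The interval of chromosome 17 overlapped those of chromosomes 3, 4, 5, 8, 10, 11, 13, 16, 18 and 19. There were 26 peaks of 1 kb or longer (5.76%, 3.80 to 8.33%), against 5.43% (4.98 to 5.91%) in the pool. No peak reached 2 kb. For 0 of 451 the exact two-sided upper limit of the share is 0.815% (0.665% if 3 counts are taken as the limit of a count of 0), and the pool held 94 of 9311, or 1.01% (0.817 to 1.23%), on 12 of the 17 autosomes. The 2 exact limits all but touch, and the other 5 autosomes had no such peak either. The 94 were unevenly shared, with 26 on chromosome 4, 24 on chromosome 5, 13 on chromosome 8 and 10 on chromosome 1. The median over the 17 autosomes was 2.

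The longest peak, chr17:76607667-76609218 at 1552 bp, also had the second highest score. Its start was 0.393 kb from that of its neighbour, and chr17:83303965-83305322, at 1358 bp, was 0.519 kb from another start. The next 3 were lone: chr17:47430252-47431601 (1350 bp, score 130.01), chr17:59215731-59217029 (1299 bp, 225.33) and chr17:36160454-36161709 (1256 bp, 182.21), the last of them in the stretch around the MHC. Length and score rose together, and the same caller set both from the same libraries. With the 451 peaks cut into 4 classes of rising score, median lengths were 348, 398, 487.5 and 701 bp, and 22 of the 26 peaks of 1 kb or longer were in the top class. Spearman's rho over the 451 peaks was 0.70, within the range of 0.63 to 0.75 on the other autosomes.

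Long peaks made up similar shares of the lone peaks and of the rest on chromosome 17. Of the 193 lone peaks, 12 were 1 kb or longer (6.22%, exact interval 3.25 to 10.6%), and of the 258 others 14 were (5.43%, 3.0 to 8.94%). In the pooled autosomes the shares were 2.63% (2.16 to 3.17%) of lone peaks and 7.58% (6.88 to 8.32%) of the others. By chromosome, the share among lone peaks was below that of chromosome 17 on each of the 17, from 0.488% on chromosome 14 to 5.61% on chromosome 11. The interval of chromosome 17 overlapped those of 14 of the 17, and chromosome 11 had like shares, with 12 of 214 lone peaks and 11 of 211 others (5.21%) at 1 kb or longer. Long peaks were few but mostly lone on chromosomes 9 (4 of 4), 19 (5 of 6) and 7 (4 of 6), and 3 of 6 were lone on chromosome 18. On the remaining autosomes long peaks made up a smaller share of lone peaks than of the others. Chromosomes 4, 5 and 8 had the most long peaks in the pool, and 9 of 107, 11 of 57 and 12 of 56 were lone. The 12 long lone peaks of chromosome 17 were spread from 8309404 to 84984100 and scored from 81.15 to 615.41. This comparison was picked after the values were seen and rests on 12 peaks. With a lone distance of 100 kb the share was 6.03% and 2 autosomes lay above it. With 20 kb it was 5.36%, which 1 autosome equalled and the other 16 did not reach.

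Set against the other autosomes, chromosome 17 carried LSD1 peaks at a fairly high density. Its 4.89 per Mb was 1.16 times the pooled density of 4.21 per Mb (interval of the ratio 1.06 to 1.27, with the pool held fixed). Chromosomes 8, 4, 10 and 13 were denser and the other 13 were sparser. The interval of chromosome 17 overlapped those of chromosomes 10, 13, 3 and 1, of which 13 and 3 were its neighbours in that order. Empty windows were scarce: 3 of 93 (3.23%), against 231 of 2223 (10.4%) in the pool and 5.10 to 20.8% by chromosome. That low value depended on where windows began, since windows shifted by 500 kb gave 7 empty ones (7.53%), with 5 of the 17 autosomes lower. Counts per window had a variance-to-mean ratio of 3.39, between 1.58 on chromosome 9 and 49.9 on chromosome 4, and 11 of 17 autosomes had a higher value.

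**Figure D5:**
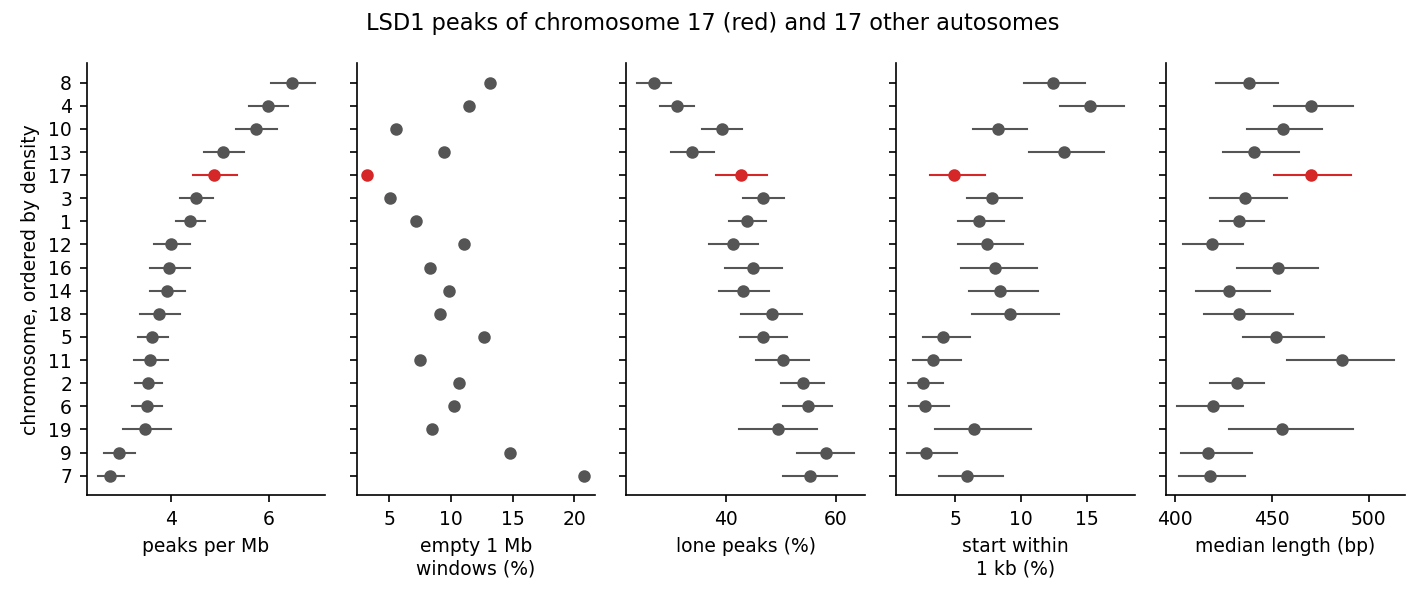
Peaks per Mb, percentage of empty 1 Mb windows, percentage of lone peaks, percentage of peaks with a start within 1 kb and median length in bp (horizontal axes) for chromosome 17 (red) and the 17 other autosomes (grey), ordered by density (vertical axis); lines are exact 95% intervals, drawn for all measures except empty windows. Chromosome 17 is the fifth from the top in density, at 4.89 per Mb, and has the lowest percentage of empty windows at this window placement.

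Chromosome 17 is also rich in genes. By the RefSeq table of GRCm38.p6 and the spans of the peak list, it has 11.5 protein-coding genes per Mb, below 3 and above 14 of the other autosomes, whose median was 7.89. Gene content and LSD1 peak density did not go together in a simple way. Chromosome 7, with the most genes per Mb (13.7), had the fewest peaks per Mb (2.75). Per 100 protein-coding genes, chromosome 17 had 42.6 peaks, against a median of 55.8 and a range of 20.1 on chromosome 7 to 79.9 on chromosome 8. A few chromosome assignments may differ between builds.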

How the data were processed

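LSD1 chromatin immunoprecipitation and input DNA from differentiating C2C12 cells were sequenced as 1 library each. Reads were aligned with BWA to mm9, per the submitters' processing notes. Peaks were called with MACS in Galaxy, per the file headers, on the LSD1 library against the input library. The version of MACS was not given in the sources used here, nor were its settings or any read filter. For each peak the authors deposited a position and a caller's score, from 50.01 to 3100 over the list, on a scale that no source names.

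Positions were made 1-based. Density is peaks per Mb between the first and last start. Distances are from start to start. Intervals are exact (Poisson for counts, Clopper-Pearson for shares, order statistics for medians) at 95%. Chromosome 15 was left out of comparisons because its density stands apart. Peaks were named by rank: the 10 highest scores, the 5 longest, the 5 highest lone, the 5 highest at 33 to 38 Mb, the 5 largest groups, the fullest windows, the 3 longest spacings, and those at the ends and limits. Tied windows are given together. The members, lists and measures were chosen with earlier results of these data known. Gene names came from RefSeq, GRCm38.p6, with no coordinates used. The functions were tested on simulated data. The software was scipy 1.17.1 and numpy 2.4.6 for intervals, pandas 2.3.3 for tables and matplotlib 3.10.9 for plots, under Python 3.11.15.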

Additional observations from a re-analysis of the deposited data

How the results depend on the processing

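No replicate could be left out. No paired analysis was possible because the comparison is of 1 library with 1 other. Of 27 alternatives to 11 results, 12 moved a value beyond its counting interval or a count by over 1.5 times. Another 3, each on the stretch around the MHC, moved a value by over 1.5 times inside its interval: its share of peaks was 1.76% among higher scores and 2.00% between 34 and 37 Mb, and its density ratio was 0.312 among higher scores. Among the higher-scoring peaks (score at the list's median or above), the density was 2.47 per Mb, 52.4% were lone, 18.5% had a start within 10 kb, the median length was 600 bp, 10.6% were 1 kb or longer, and 13.4% of lone peaks were. Keeping only the higher scores lowers density by construction. Thinning the list also tends to raise the share of lone peaks and lower the share with a start within 10 kb. Length rose with score (rho 0.70), so higher-scoring peaks are also longer. With starts within 10 kb counted once the density was 4.08 per Mb. Other distances gave 62.1% (20 kb) and 25.7% (100 kb) lone, and 4.88% had a start within 1 kb. Such shares change with the distance by definition. The stretch of 32 to 39 Mb held 9.31% of peaks, at a density above that of the whole chromosome, and shifted windows gave 7 empty ones. Shares between 34 and 37 Mb and between 32 and 39 Mb also change with the length of the stretch. The density relative to the other autosomes stayed between 1.09 (chromosome 15 kept in) and 1.25 (against their median). The density ratio around the MHC was 0.675 with starts within 10 kb counted once and 0.581 without 38 to 39 Mb in the rest, an alternative chosen, like those for long lone peaks, after seeing the data. Unknown depth limits what can be said of weaker sites.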
